A study of Mus musculus with 15 samples.

Results

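The genes described here are 35 antiviral interferon-stimulated genes, listed by name and located on the array by symbol. A gene was taken as measured when a probe set of the deposited table carried that single symbol, and where several did, the probe set with the highest mean over the 15 arrays was used. By this rule 34 of the 35 genes were measured, among 19937 genes in all, each by 1 probe set. Ifi44 has no probe set of that kind and is not analysed further. The study profiled D1 cells, a line of long-term dendritic cells (DCs) derived from the spleen of C57BL/6 mice that depends on growth factors in culture, on Affymetrix Mouse Gene 1.0 ST arrays. The 5 groups of 3 arrays were nontreated cells, cells exposed to curdlan at 10 µg/ml for 2 h or 4 h, and cells exposed to curdlan together with FK506 for 2 h or 4 h. Curdlan is a particulate beta-glucan that engages the receptor dectin-1, and FK506 blocks the phosphatase calcineurin and so the activation of NFAT factors. The labels name the 3 arrays of a group biological replicates of this 1 line, so p-values measure the spread between its cultures. Cells given FK506 alone were not analysed here, and comparisons at both times share the same 3 nontreated arrays.

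Interferon-stimulated genes form the effector arm of interferon signalling. Type I interferon binds its receptor on the cell that made it or on neighbours, and the receptor kinases activate transcription factors that bind the interferon-stimulated response element (ISRE) in the promoters of responsive genes. The products bind or degrade viral RNA, block viral translation or assembly, sense nucleic acids, or tune the pathway itself, and DCs are known both to make and to answer interferon. Many members can also be switched on directly by interferon regulatory factors, without interferon as an intermediate.

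To show the sequence in front of these genes, the 250 bases before the annotated start (RefSeq, build GRCm38.p6) are given for the 4 members with the largest rise at 4 h among those held in the promoter table, and for the 2 measured members with the smallest change. They are written 5′ to 3′ on the gene's own strand, and capitals mark each match to an ISRE core, GAAANNGAAA, or to its reverse complement. The windows lie at chr1:174031756-174032005 (minus strand, Ifi205), chr12:26456453-26456702 (minus, Rsad2), chr19:34640639-34640888 (plus, Ifit1), chr19:34607707-34607956 (plus, Ifit3b), chr11:101448162-101448411 (plus, Ifi35) and chr8:71537473-71537722 (minus, Bst2).
Ifi205: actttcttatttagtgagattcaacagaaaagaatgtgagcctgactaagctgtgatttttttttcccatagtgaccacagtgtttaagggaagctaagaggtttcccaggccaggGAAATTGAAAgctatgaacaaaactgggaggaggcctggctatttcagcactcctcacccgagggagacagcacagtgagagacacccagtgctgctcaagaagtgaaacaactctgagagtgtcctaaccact
Rsad2: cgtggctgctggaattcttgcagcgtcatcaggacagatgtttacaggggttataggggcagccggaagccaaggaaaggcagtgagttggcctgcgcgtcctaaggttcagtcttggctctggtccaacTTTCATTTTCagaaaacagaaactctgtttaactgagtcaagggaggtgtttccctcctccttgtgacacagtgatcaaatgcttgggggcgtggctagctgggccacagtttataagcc
Ifit1: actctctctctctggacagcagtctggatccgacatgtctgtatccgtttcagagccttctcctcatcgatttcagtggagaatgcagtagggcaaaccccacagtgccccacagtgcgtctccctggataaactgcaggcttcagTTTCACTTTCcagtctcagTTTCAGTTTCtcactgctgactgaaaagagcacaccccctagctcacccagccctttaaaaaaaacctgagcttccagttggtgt
Ifit3b: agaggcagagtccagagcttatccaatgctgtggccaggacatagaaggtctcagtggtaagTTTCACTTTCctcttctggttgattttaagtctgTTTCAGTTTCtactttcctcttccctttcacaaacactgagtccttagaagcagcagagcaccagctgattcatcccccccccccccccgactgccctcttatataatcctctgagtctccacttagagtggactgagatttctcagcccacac
Ifi35: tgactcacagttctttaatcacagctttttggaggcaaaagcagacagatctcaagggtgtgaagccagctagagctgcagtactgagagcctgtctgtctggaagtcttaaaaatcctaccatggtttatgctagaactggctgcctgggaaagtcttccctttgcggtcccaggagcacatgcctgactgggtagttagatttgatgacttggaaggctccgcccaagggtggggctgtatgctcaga
Bst2: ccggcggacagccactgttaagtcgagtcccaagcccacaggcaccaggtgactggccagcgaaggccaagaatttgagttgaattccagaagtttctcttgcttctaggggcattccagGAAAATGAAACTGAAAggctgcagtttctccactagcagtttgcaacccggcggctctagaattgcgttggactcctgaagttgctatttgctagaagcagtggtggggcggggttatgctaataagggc

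Ifi205 held 1 such match in the printed bases (positions −134 to −125 from the start) and Rsad2 held 1 (−120 to −111). Ifit1 held 2 matches (−104 to −95 and −85 to −76), and so did Ifit3b (−188 to −179 and −154 to −145). Bst2 held 2 overlapping matches (−130 to −121 and −124 to −115), and Ifi35 had none in these bases. Of the 34 measured members, 25 had at least 1 window of 300 bases in the table (250 before and 50 after the start, 29 windows). On either strand, an ISRE core was found for 11 of 25 members (44.0%) and for 1079 of 27025 genes in all (3.99%). It was present in 9 of the 18 members raised at 4 h that had a window (50%) and in 2 of the 7 others (28.6%, Stat2 and Bst2). A second motif, the gamma-activated site TTCNNNGAA that STAT dimers bind, was found for 6 of 25 members (24%) against 9.55% of all genes. The NFAT core GGAAAA was found for 12 of 25 members (48.0%) against 26.1% of all genes, for 8 of the 18 raised (44.4%) and for 4 of the 7 others (57.1%). The motifs can overlap, as GGAAAA and the ISRE core do in Bst2 (GGAAAA at −131 to −126). These matches describe letters in a short window and were not tested as binding sites.

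Few of the antiviral genes were raised by curdlan at 2 h, and most were raised at 4 h. A gene was called when its adjusted p was under 0.05 and its change at least 1.5-fold, the thresholds of the study's methods. At 2 h curdlan raised 3 of 34 members, where 2.2% of all 19937 genes rose, and lowered 1, where 1.4% of all genes fell. At 4 h it raised 26 of 34, where 5.05% of all genes rose, and lowered 0, where 4.15% fell. Between 2 h and 4 h of curdlan 29 of 34 were higher at 4 h, against 2.79% of all genes, and 0 were lower, against 1.3%. The median log2 change of the 34 members over nontreated cells was −0.10 at 2 h and 0.87 at 4 h, beside medians of −0.04 and −0.12 over all genes. In bulk RNA a change in the level per cell and a change in the share of cells that express a gene cannot be told apart.

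Among the arrays, nontreated replicate 1 and replicate 3 of curdlan at 2 h agreed least with the rest of their groups, with array weights of 0.0781 and 0.119 where all others had 0.707 or more. Without both, 3 members rose and 2 fell at 2 h (Stat2 and, at −0.60, Oas2), and 24 rose at 4 h. As a check of the cell type, all 14 DC markers lay above the lower quartile of gene means (5.28 on the log2 scale) in nontreated cells, as did 76.2% of all genes, and the median of that list ran from 10.93 to 11.37 over the 5 groups. At 4 h of curdlan 3 of these markers were higher than in nontreated cells (Irf8 2.40, Ccr7 1.08, Cd86 0.65), where 5.05% of all genes rose. Cd209a was lower (−0.90, from 9.25 to 8.35), where 4.15% of all genes fell. None of the 14 was called for FK506 at either time by limma (unadjusted p under 0.05 for 2 at 2 h and 4 at 4 h). Of all genes, 0.762% at 2 h and 1.53% at 4 h were lower with FK506. The FK506 difference of Ccr7 was called as larger at 4 h than at 2 h. Within the DC list Flt3 lay at 5.93 in nontreated cells, under the all-gene median of 6.82. Of markers of other cells, those above that quartile were 5 of 6 for macrophages, 6 of 7 for plasmacytoid DCs, 5 of 8 for fibroblasts, 4 of 6 for T cells, 2 of 4 for B cells and 1 of 5 for NK cells. In nontreated cells the median of the macrophage list was 10.98, beside 10.93 for the DC list, so these levels do not separate DCs from macrophages. Of the markers of other cells only Cd300c was called in a curdlan comparison (−0.68 at 4 h against nontreated). Only Mertk and Cd5 were called for FK506 (curdlan minus curdlan with FK506 at 4 h, 2.20 and 0.64). Mertk was called for FK506 at 2 h as well, at 8.51 with curdlan and 6.98 with curdlan and FK506. The part of other cells in the results below was not tested.

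**Figure D1:**
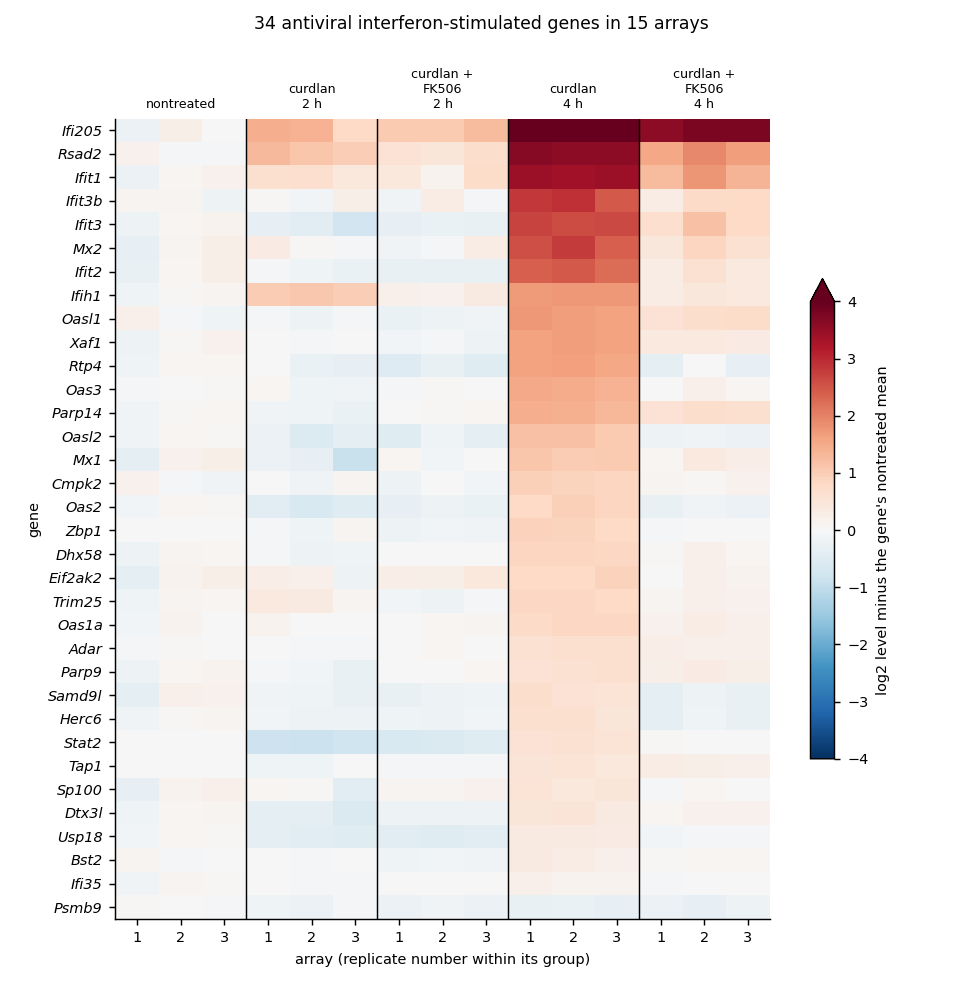
Level of each of the 34 measured genes (rows, ordered by the 4 h rise) in each of the 15 arrays (columns, by group), as the log2 level minus the gene's nontreated mean; the colour scale ends at 4. The 3 curdlan 4 h arrays are raised over most rows, the 3 arrays with FK506 at 4 h keep strong colour in the top rows led by Ifi205, and at 2 h Ifi205, Rsad2 and Ifih1 are raised and Stat2 is low.

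The 3 members raised at both times were Ifi205, Rsad2 and Ifih1. Ifi205 encodes a protein of the PYHIN family of intracellular DNA binders, and it had the largest change among the members at both times. Its log2 level was 5.29, 5.78 and 5.53 in the nontreated arrays, 6.98, 6.91 and 6.32 at 2 h of curdlan and 10.72, 10.69 and 10.64 at 4 h. With FK506 it was 6.59, 6.58 and 6.80 at 2 h and 9.12, 9.31 and 9.28 at 4 h. All curdlan arrays were thus above all nontreated arrays, with or without FK506, and the 2 h arrays with and without FK506 overlapped. The rise was 1.21 ± 0.15 (SE) at 2 h (limma adjusted p = 5.40e-05) and 5.15 ± 0.15 at 4 h (adjusted p = 1.10e-11). PYHIN genes are close copies in a cluster, so the probe set may read more than 1 of them.

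Rsad2 encodes viperin, a radical SAM enzyme that makes a chain-terminating ribonucleotide. Its level was 6.57, 6.33 and 6.32 in nontreated cells, 7.70, 7.53 and 7.38 at 2 h and 10.05, 9.99 and 9.98 at 4 h of curdlan. With FK506 it was 6.98, 6.90 and 7.11 at 2 h and 7.95, 8.34 and 8.07 at 4 h. The 5 groups did not overlap with one another, and at each time the arrays with FK506 lay between nontreated cells and curdlan alone. The rise was 1.13 ± 0.11 at 2 h and 3.60 ± 0.11 at 4 h (limma adjusted p = 2.91e-06 and 9.58e-12).

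Ifih1 encodes MDA5, a cytoplasmic sensor of long double-stranded RNA. Its level was 8.72, 8.94 and 8.98 in nontreated cells, 9.90, 9.95 and 9.87 at 2 h and 10.58, 10.60 and 10.61 at 4 h. With FK506 it was 9.08, 9.05 and 9.23 at 2 h and 9.18, 9.33 and 9.27 at 4 h, with all of these arrays above the nontreated ones but below every array of curdlan alone. The rise was 1.03 ± 0.07 at 2 h and 1.72 ± 0.07 at 4 h (limma adjusted p = 1.03e-07 and 2.13e-10).

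Stat2, which encodes a signalling partner of the interferon receptors, was the single member lowered at 2 h. Its level was 9.71, 9.67 and 9.69 in nontreated cells and 8.85, 8.82 and 8.90 at 2 h of curdlan. At 4 h of curdlan it was 10.26, 10.31 and 10.22. With FK506 it was 9.08, 9.10 and 9.20 at 2 h and 9.73, 9.70 and 9.71 at 4 h, the latter close to the nontreated arrays. The change was −0.83 ± 0.04 at 2 h (limma adjusted p = 6.57e-09) and 0.58 ± 0.04 at 4 h (adjusted p = 9.78e-08), the latter just short of 1.5-fold and past it without nontreated replicate 1 (0.59) or without curdlan 4 h replicate 3 (0.60). From 2 h to 4 h it rose by 1.41. Other members were also under their nontreated level at 2 h with an adjusted p under 0.05, but by less than 1.5-fold: Oas2 (−0.51), Ifit3 (−0.50), Usp18 (−0.44), Dtx3l (−0.44), Oasl2 (−0.38) and Parp14 (−0.19). Of these, Ifit3 passed the fold threshold without nontreated replicate 1 (−0.61) or without curdlan 2 h replicate 1 (−0.59). With adjusted p alone, 5 members were higher and 7 lower at 2 h. The share of all genes called by adjusted p alone is not given, so these counts have no background beside them.

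**Figure D2:**
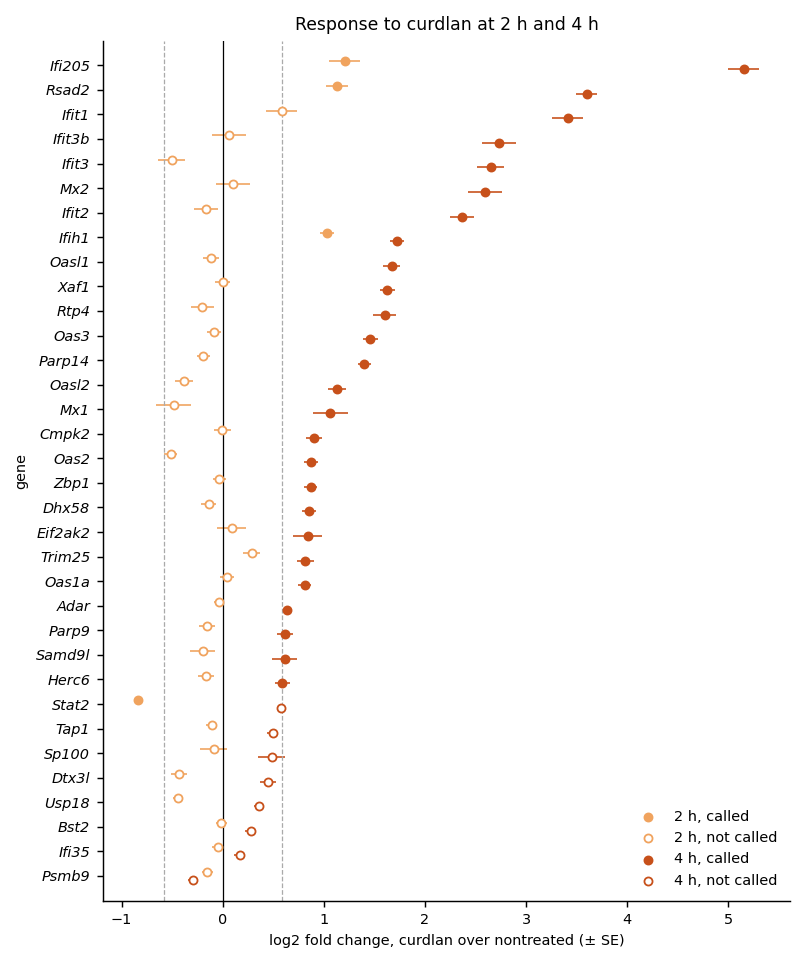
Log2 fold change of curdlan over nontreated cells (horizontal axis, ± SE of the fit, 3 arrays per group) for each gene at 2 h (light) and 4 h (dark); filled points were called and dashed lines mark a 1.5-fold change. At 2 h 3 filled points lie to the right and Stat2 to the left, and at 4 h 26 filled points run from 0.59 (Herc6) to 5.15 (Ifi205).

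The 4 IFIT genes, whose products bind the ends of foreign RNA and block its translation, were not called at 2 h and were all raised at 4 h, by 2.36 to 3.41. Ifit1, whose product recognises RNA caps that lack methylation, was at 6.36, 6.70 and 6.77 in nontreated cells, 7.26, 7.29 and 7.03 at 2 h and 10.05, 9.97 and 10.04 at 4 h. Its 2 h change of 0.58 ± 0.16 (limma adjusted p = 0.0157) fell just under the fold threshold, without overlap of the groups, and passed it without nontreated replicate 2 (0.63) or 3 (0.66) or without curdlan 2 h replicate 3 (0.66). With FK506 Ifit1 was at 7.05, 6.75 and 7.35 at 2 h and at 7.88, 8.37 and 7.98 at 4 h.

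Ifit2 was at 7.43, 7.81 and 7.97 in nontreated cells, 7.69, 7.57 and 7.47 at 2 h and 10.13, 10.19 and 9.98 at 4 h of curdlan, and with FK506 at 7.45, 7.45 and 7.45 at 2 h and 8.03, 8.35 and 8.12 at 4 h. Ifit3 was at 7.70, 8.0 and 8.06 in nontreated cells, 7.59, 7.50 and 7.15 at 2 h and 10.63, 10.53 and 10.55 at 4 h, and with FK506 at 7.58, 7.64 and 7.61 at 2 h and 8.58, 9.09 and 8.72 at 4 h. At 2 h of curdlan the arrays of Ifit3 lay below the nontreated ones and those of Ifit2 overlapped them, and at 4 h both were far above. Ifit3b was at 4.14, 4.14 and 3.83 in nontreated cells, 4.07, 3.93 and 4.28 at 2 h and 6.88, 6.94 and 6.49 at 4 h, and with FK506 at 3.88, 4.34 and 3.98 at 2 h and 4.33, 4.79 and 4.84 at 4 h. Its nontreated level, like those of Mx2 and Cmpk2, lay under the lower quartile of gene means. Ifit3 and Ifit3b are close copies of each other, so their probe sets may share signal.

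The MX GTPases form rings around viral nucleocapsids. Mx2 was at 4.55, 4.97 and 5.11 in nontreated cells, 5.22, 4.93 and 4.80 at 2 h and 7.46, 7.69 and 7.27 at 4 h of curdlan, and with FK506 at 4.74, 4.79 and 5.16 at 2 h and 5.34, 5.73 and 5.49 at 4 h. Its rise was 2.59 ± 0.17 at 4 h (limma adjusted p = 2.82e-08) and 0.11 at 2 h. Mx1, which is carried in C57BL/6 mice as an allele that makes no functional protein, rose by 1.06 ± 0.17 at 4 h (adjusted p = 0.000228). At 2 h Mx1 was at −0.48, not called (adjusted p = 0.0707), and passed as lowered without nontreated replicate 1 (−0.68) or without curdlan 2 h replicate 1 (−0.61).

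**Figure D3:**
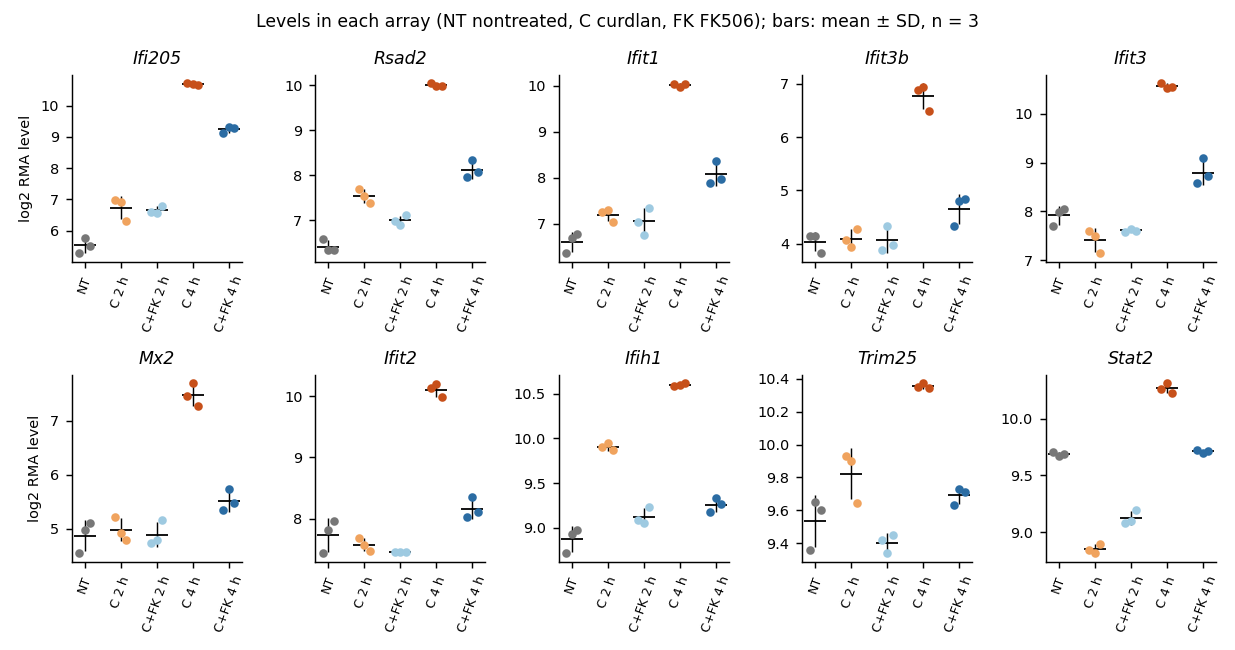
Log2 level in every array (points, 3 per group) with the group mean and SD for the 10 members described array by array; each panel has its own vertical range. Curdlan 4 h is the highest group in all 10 panels, the mean of curdlan with FK506 at 4 h lies between it and nontreated cells in all 10, by as little as 0.02 over nontreated cells for Stat2, and Stat2 is lowest at 2 h.

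The 5 OAS and OASL genes were all raised at 4 h, and none was called at 2 h, where they ran from −0.51 to 0.04. OAS enzymes make the 2-5A messenger that activates RNase L, and the OAS-like proteins act on RNA sensing. Oasl1 rose most (1.67 ± 0.08), followed by Oas3 (1.46), Oasl2 (1.13), Oas2 (0.87) and Oas1a (0.81). Among the 6 nucleic acid sensors and binders all rose at 4 h. Beside Ifi205 and Ifih1 these were Zbp1 (0.87), a sensor of Z-form nucleic acid, Dhx58 (0.85), the RIG-I-like receptor LGP2, Eif2ak2 (0.84), the kinase PKR that halts translation on double-stranded RNA, and Adar (0.63), which edits adenosine in double-stranded RNA. Cmpk2, a mitochondrial nucleotide kinase gene that neighbours Rsad2, rose by 0.90.

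Of 5 genes that transmit or tune the signal, Trim25, an E3 ligase acting on the RNA sensor RIG-I, and Herc6, the main mouse ligase for ISG15, rose at 4 h. Trim25 was at 9.36, 9.65 and 9.60 in nontreated cells, 9.93, 9.90 and 9.64 at 2 h and 10.35, 10.37 and 10.34 at 4 h, and with FK506 at 9.42, 9.34 and 9.45 at 2 h and 9.63, 9.73 and 9.71 at 4 h. It rose by 0.82 ± 0.08 at 4 h and was the single raised member not called between 2 h and 4 h (0.53), since it had moved by 0.29 at 2 h. Herc6 rose by 0.59 ± 0.07 at 4 h, at the edge of the fold threshold, and lost the call without nontreated replicate 1 (0.51), without curdlan 4 h replicate 1 (0.57) or without curdlan 4 h replicate 2 (0.56). Usp18, the protease that removes ISG15 and damps receptor signalling, was at 0.36 at 4 h against nontreated cells, below the fold threshold, and rose by 0.80 from 2 h to 4 h. Of 3 genes of ADP-ribosylation, Parp14 (1.40) and Parp9 (0.61) rose at 4 h, and Dtx3l, whose product is the ligase partner of PARP9, was at 0.45 and rose by 0.89 from 2 h. Parp9 no longer passed without nontreated replicate 1 (0.51).

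Among 5 other effectors, Xaf1, which promotes cell death, rose by 1.63 at 4 h, Rtp4, which binds RNA and restrains flaviviruses, by 1.60, and Samd9l, a growth-restraining antiviral factor, by 0.61. Samd9l lost the call without nontreated replicate 1 (0.43) or without curdlan 4 h replicate 1 (0.57). Bst2, the tetherin that holds budding virus on the cell surface, was at 0.28, and Sp100, a nuclear body protein, at 0.48. Sp100 passed without nontreated replicate 3 (0.59), and its change from 2 h to 4 h (0.57) passed without curdlan 2 h replicate 1 (0.66) or 2 (0.65) or curdlan 4 h replicate 2 (0.61). The antigen-processing pair was not raised either: Tap1, the peptide transporter, was at 0.50 and rose by 0.60 from 2 h to 4 h, and Psmb9, an immunoproteasome subunit, was the single member under its nontreated level at 4 h (−0.29 ± 0.05). Ifi35, at 0.17 ± 0.06, changed least by size. The call of Tap1 between the times was lost without curdlan 2 h replicate 1 or 2 or curdlan 4 h replicate 2 (0.57 each). Centring each array on its median over all genes, which makes the array medians equal by construction, brought Stat2 (0.69), Tap1 (0.60) and Sp100 (0.59) past the threshold at 4 h and Ifit1 (0.62) at 2 h.

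FK506 was compared next, as the level with curdlan minus that with curdlan and FK506, so that a positive value means a lower level with the inhibitor. At 2 h 1 of 34 members was lower with FK506, where 0.762% of all genes were, and 0 were higher, where 0.361% of all genes were. That member was Ifih1, by 0.78 ± 0.07 (limma adjusted p = 5.38e-06), whose curdlan arrays all lay above its FK506 arrays. Rsad2 (0.54 ± 0.11, adjusted p = 0.00508) and Trim25 (0.42 ± 0.08, adjusted p = 0.00498) came next in that direction, both below the fold threshold. Rsad2 passed without curdlan 2 h replicate 3 (0.62) or without curdlan + FK506 2 h replicate 3 (0.60). Ifi205, raised at 2 h, was at 0.09 (adjusted p = 0.763). In the other direction, Mx1 had the largest difference (−0.49 ± 0.17), without overlap of the groups and not called (limma adjusted p = 0.129). Oas2 (−0.26), Parp14 (−0.23) and Stat2 (−0.27) had an adjusted p under 0.05 with a change under 1.5-fold.

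At 4 h 24 of 34 members were lower with FK506, where 1.53% of all genes were, and 0 were higher, where 0.211% of all genes were. The median difference over the members was 0.85, beside −0.03 over all genes. The largest differences were those of Ifit3b (2.12 ± 0.17, limma adjusted p = 1.31e-06), Mx2 (1.95 ± 0.17, adjusted p = 3.10e-06) and Ifit1 (1.94 ± 0.16, adjusted p = 1.57e-06), followed by Ifit2 (1.94), Rsad2 (1.89), Rtp4 (1.85), Ifit3 (1.77) and Ifi205 (1.44). All 24 were among the 26 raised at 4 h. The other 2 raised members were Adar (0.41) and Parp9 (0.35), both lower with FK506 by adjusted p but by less than 1.5-fold. Oas1a (0.59) was at the edge and lost the call without curdlan + FK506 4 h replicate 1 (0.56) or 3 (0.58) or without curdlan 4 h replicate 2 (0.58) or 3 (0.57). Stat2, not among the raised, was at 0.55.

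**Figure D4:**
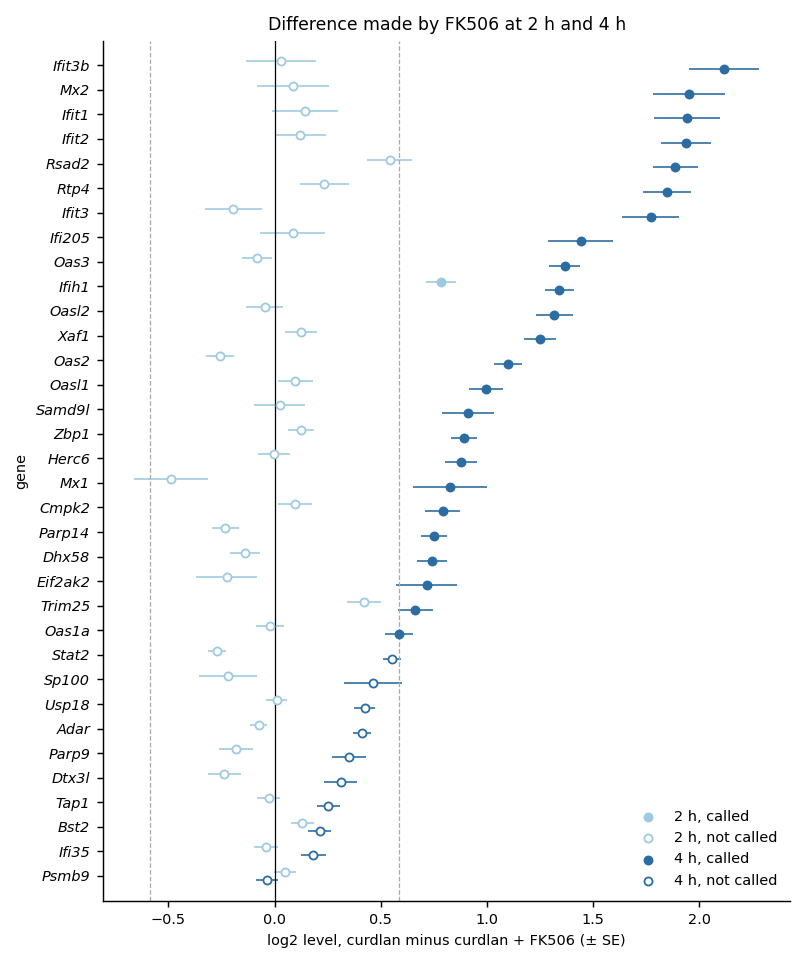
Log2 level with curdlan minus that with curdlan and FK506 (horizontal axis, ± SE of the fit, 3 arrays per group) for each gene at 2 h (light) and 4 h (dark); filled points were called and dashed lines mark 1.5-fold. At 2 h Ifih1 alone is filled, and at 4 h 24 filled points run from 0.59 (Oas1a) to 2.12 (Ifit3b).

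The difference made by FK506 was itself larger at 4 h than at 2 h, by a test of the interaction, for 23 of 34 members, where 1.06% of all genes were called that way. It was smaller for 0, where 0.171% of all genes were. The median of this contrast was 0.88 over the members and −0.05 over all genes. Of the members with the largest positive FK506 differences at 2 h, it was called for Rsad2 (1.35 ± 0.15, limma adjusted p = 0.000155). It was not called for Ifih1 (0.56 ± 0.10, called without replicate 2 of curdlan with FK506 at 2 h or at 4 h, 0.59 each) or Trim25 (0.24 ± 0.12). It was also called for Ifi205 (1.36 ± 0.22, adjusted p = 0.00239). The call of Eif2ak2 (0.94) was lost without curdlan + FK506 2 h replicate 3 or curdlan + FK506 4 h replicate 1, and that of Oas1a (0.61) without curdlan + FK506 4 h replicate 1 or curdlan 2 h replicate 2. Dtx3l (0.55) passed without curdlan 2 h replicate 1 or curdlan 4 h replicate 3, and Sp100 (0.68) without nontreated replicate 1. Among the members called for this contrast, only Rsad2 and Ifi205 were raised by curdlan at 2 h. The others had no called rise at 2 h for FK506 to lower. The rises of Rsad2 and Ifi205 were themselves larger at 4 h. In this contrast a later or larger rise and a stronger action of FK506 at 4 h cannot be told apart. Stat2, Oas2 and Parp14 had a negative FK506 difference at 2 h (−0.27, −0.26 and −0.23) and a positive one at 4 h (0.55, 1.10 and 0.75). Their contrast thus includes an opposite difference at 2 h, and Stat2 was not called as raised at either time.

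Cells given curdlan and FK506 were also set against nontreated cells. At 2 h 2 of 34 members were raised, where 1.81% of all genes were, and 0 were lowered, where 0.537% were. They were Ifi205 (1.12 ± 0.15) and Rsad2 (0.59 ± 0.11), Rsad2 at the edge of the threshold and under it without nontreated replicate 2 (0.55) or 3 (0.54) or without curdlan + FK506 2 h replicate 3 (0.53). Stat2 was at −0.56, just short of a call, and passed it without curdlan + FK506 2 h replicate 3 (−0.60), as Ifit1 did without curdlan + FK506 2 h replicate 2 (0.59). At 4 h 8 members were raised, where 2.95% of all genes were, and 0 were lowered, where 2.43% were. These 8 were Ifi205 (3.71), Rsad2 (1.71), Ifit1 (1.47), Ifit3 (0.88), Oasl1 (0.67), Parp14 (0.65), Mx2 (0.64) and Ifit3b (0.62), and all 8 were also lower with FK506 than with curdlan alone. Without nontreated replicate 1, alone or with the other outlying array, 6 were called, and Mx2 (0.48) and Parp14 (0.58) were short of the threshold. The call of Ifit3b was lost without nontreated replicate 3 (0.52) or without curdlan + FK506 4 h replicate 2 (0.55) or 3 (0.53), and that of Mx2 without curdlan + FK506 4 h replicate 2 (0.54). The other 16 members lowered by FK506 were not called against nontreated cells in its presence.

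The share of the curdlan rise that remained with FK506 was computed for each raised member as the log2 change over nontreated cells with FK506, in percent of that without, with an SE by the delta method. At 2 h it was 92.9% ± 12.3 for Ifi205, 51.9% ± 8.1 for Rsad2 and 23.9% ± 6.1 for Ifih1, beside a median of 74.9% over the 439 genes raised at 2 h. At 4 h its median over the 26 raised members was 22.3%, beside 69.6% over all 1007 genes raised at 4 h. The share lay under 25% for 17 of the 26, between 25% and 50% for 8 and above 50% for 1.

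Ifi205 kept the largest share at 4 h (72.0% ± 2.7), followed by Rsad2 (47.5% ± 2.5), Parp14 (46.4% ± 3.9), Ifit1 (43.0% ± 4.0), Parp9 (42.7% ± 11.3) and Oasl1 (40.4% ± 4.2). Adar (34.9%), Ifit3 (33.1%) and Oas1a (27.7%) came next. Then came Mx2 (24.8%), Xaf1 (23.1%), Ifit3b (22.6%), Mx1 (22.5%), Ifih1 (22.2%), Trim25 (18.8%), Ifit2 (18.0%), Eif2ak2 (15%), Dhx58 (13.1%) and Cmpk2 (12.6%). Oas3 kept 6.39% ± 4.77. The 6 members with a share under 0, whose level with FK506 lay below that of nontreated cells, were Zbp1 (−2.49%), Rtp4 (−15.4%), Oasl2 (−17.0%), Oas2 (−26.4%), Samd9l (−48.7% ± 26) and Herc6 (−48.8% ± 16.6), and none of these was called as lowered against nontreated cells, although Herc6 (−0.29, limma adjusted p = 0.0103) and Oas2 (−0.23, adjusted p = 0.0192) were lower by adjusted p with a change under 1.5-fold. In this order 22 of 25 neighbouring pairs differed by less than the SE of their difference, and the widest gap, of 24.5 percentage points, lay between Ifi205 and Rsad2.

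**Figure D5:**
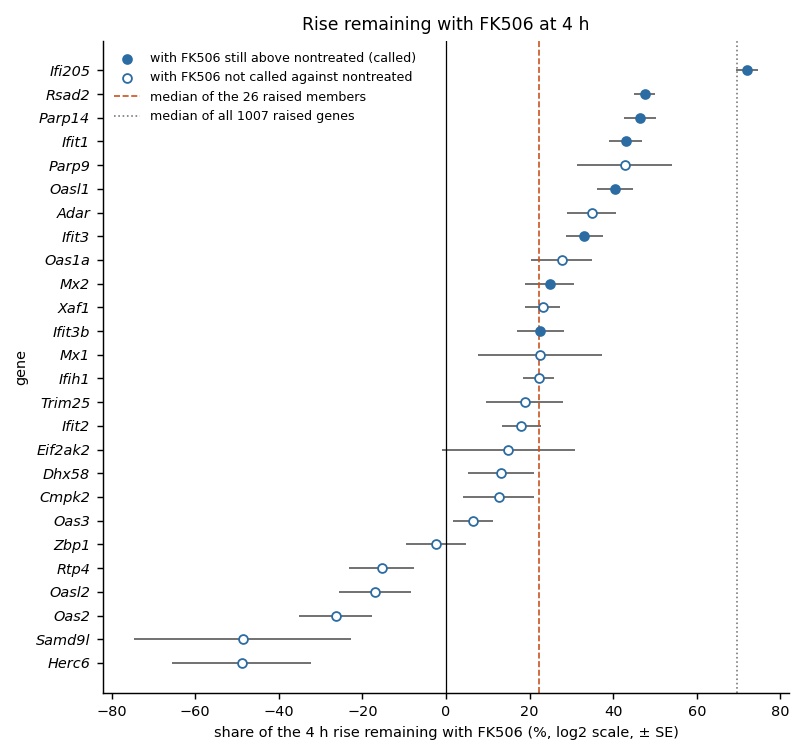
Share of the 4 h rise remaining with FK506 (horizontal axis, percent on the log2 scale, ± SE) for the 26 members raised at 4 h; filled points mark the 8 members still called as raised with FK506, the dashed line the members' median (22.3%) and the dotted line the median of all 1007 raised genes (69.6%). Ifi205 (72.0%) is the single point beyond the dotted line, and 6 points lie under 0.

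Shares depend on the scale. On the linear scale the median at 4 h was 12.3% over the members and 60.1% over all raised genes, Ifi205 kept 35% and Rsad2 20.4%, and the highest value was that of Parp9 (37.6%). The order of the members thus differed between the scales.

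By family, the 4 IFIT genes kept 18.0% to 43.0% and 3 of them were still raised with FK506. The 5 OAS and OASL genes kept −26.4% to 40.4%, with Oasl1 still raised, and the 6 sensors and binders kept −2.49% to 72.0%, with Ifi205 still raised. No test of the difference between families was made.

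The other genes of the pathway were taken from 5 lists, whose counts stand beside 2.2% of all genes higher and 1.4% lower at 2 h, 5.05% and 4.15% at 4 h, and 0.762% and 1.53% lower with FK506 at 2 h and 4 h. Of 21 interferon ligand genes 14 were measured and 0 were called against nontreated cells at either time by limma, although 1 gene at 2 h and 3 genes at 4 h had an unadjusted p under 0.05. Ifnb1 was at 5.30 ± 0.32 (SD, n = 3) in nontreated cells, 5.25 ± 0.19 at 2 h and 5.05 ± 0.16 at 4 h of curdlan, changes of −0.05 and −0.25 with adjusted p of 0.892 and 0.165. Ifng was at 5.98 ± 0.23 in nontreated cells and 6.49 ± 0.04 at 4 h of curdlan (0.51, adjusted p = 0.000712, under 1.5-fold), and it was the single ligand lower with FK506 at 4 h, by 0.69 ± 0.10. These transcript levels were taken at the times given and say nothing of interferon protein. Ifnb1 lay close to the lower quartile of gene means (5.28), and the ligands ran from 3.60 (Ifna13) to 8.18 (Ifnl2) in nontreated cells. Background signal compresses changes of dim genes, so the lack of calls does not exclude a rise of a dim transcript.

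Of 18 receptor and signalling genes 16 were measured. At 2 h 1 rose (Socs3, a feedback inhibitor of JAK kinases, 2.33). At 4 h 3 rose: Socs3 (2.00), the interleukin-10 and interferon lambda receptor chain Il10rb (0.90) and Irf9 (0.59), the partner of STAT2. The rise of Irf9 was at the edge of the fold threshold. None of the 16 was called for FK506 at 2 h or 4 h by limma (unadjusted p under 0.05 for 7 and 5 of them), though the FK506 difference of Irf9 (0.56 at 4 h) grew by 0.70 between the times and was called. Of 8 interferon regulatory factors 7 were measured, 3 rose at 2 h (Irf8 1.59, Irf4 0.87, Irf1 0.81) and 4 at 4 h (Irf8 2.40, Irf7 1.56, Irf4 1.21, Irf1 1.06). Irf7, the factor that amplifies type I interferon transcription, was at −0.02 at 2 h, rose by 1.58 from 2 h to 4 h and was lower with FK506 at 4 h by 1.38, as was Irf1 by 0.72.

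Of 20 genes of nucleic acid sensing 16 were measured, 3 rose and 2 fell at 2 h, and 5 rose and 2 fell at 4 h. At 2 h Tank (0.95), Traf6 (0.81) and the kinase Ikbke (0.76) rose and Tlr4 (−0.77) and Tlr3 (−0.69) fell. At 4 h Ikbke (3.50), Tank (1.22), Ticam2 (0.98) and Traf6 (0.82) led the rises, with the RNA sensor RIG-I (Ddx58, 0.80) among them, and Mavs (−0.70) and Tlr3 (−0.63) fell. Of these 16, 3 were lower with FK506 at 4 h, Ikbke (1.27), Ddx58 (0.83) and Ticam2 (0.65), and 0 at 2 h by limma (unadjusted p under 0.05 for 5). Of 59 other interferon-stimulated genes 50 were measured, without Isg15. At 2 h 4 rose (Cxcl10 2.81, Cxcl9 1.17, Helz2 0.94, Ifitm2 0.83) and 3 fell (Trim21 −0.81, Slfn1 −0.72, Gbp5 −0.70), and at 4 h 22 rose and 0 fell, led by Cxcl10 (3.99), Cxcl9 (3.96), Helz2 (2.68) and Trim30d (1.96). FK506 lowered 2 of the 50 at 2 h (Cxcl9 1.03, Cxcl10 0.88), with Slfn1 higher (−0.65), and 18 at 4 h, led by Cxcl9 (3.68), Trim30d (1.54), Cxcl10 (1.49) and Slfn5 (1.46).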

How the data were processed

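Total RNA of D1 cells was hybridised to Affymetrix Mouse Gene 1.0 ST arrays, 15 arrays in 5 groups of 3. The authors deposited log2 values per probe set, normalised together by RMA (affy, R 2.15.2, per the labels). Annotation of the 34760 probe sets came from a platform table, in which 21640 had 1 symbol, 1321 several and 11799 none, and 19937 genes were tested. One mean per group was fitted in limma (3.58.1, under R 4.3.3) to the 15 arrays together (10 residual degrees of freedom), moderated by eBayes, with Benjamini-Hochberg adjustment over all 19937 genes in each of 8 comparisons. A gene was called at an adjusted p under 0.05 and a change of at least 1.5-fold. RMA places all arrays on 1 intensity distribution, so changes are relative to the whole array, and background signal compresses changes of dim genes.

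The median SE of a log2 change was 0.08, and 3 arrays per group limit the precision. In a test on simulated data for curdlan at 4 h against nontreated cells over 19937 genes, 97% of 100 genes changed by 1 on the log2 scale and 100% of 100 changed by 2 were recovered. Simulated noise was independent between arrays, with the same spread for a gene in all of them. It therefore did not represent the outlying arrays, and the test checks the procedure only. No array pair was identical, and correlations within groups were 0.993 to 0.999. The members, gene lists and roles were chosen with earlier results of these data known. The rule for named genes gave values in every array for the 8 largest rises at 4 h and members raised or lowered at 2 h. It did so too for the 3 largest positive FK506 differences at each time and the 2 largest shares remaining. Up to 4 called genes per pathway list were named, with 2 given by their values where none was called. Other members were given by their changes. The fold threshold, adjusted p threshold, limma treat, array scaling, probe-set choice, filter on dim genes, features tested, array weights, variance prior, groups in the fit, replicate block and left-out arrays were varied. Replicate numbers were checked as pairs and did not pair the arrays. Promoter sequences came from RefSeq (GRCm38.p6). The genome build behind the probe sets was not given in the sources used here.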

Additional observations from a re-analysis of the deposited data

Results flagged for a closer look

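The results that follow stood out because the difference made by FK506 was not the same at 2 h and 4 h, by a test of that change in 1 limma fit (adjusted p under 0.05 and at least 1.5-fold). They are given as the difference at 4 h less that at 2 h on the log2 scale. Among the IFIT and MX genes and the enzymes Rsad2 and Cmpk2 these were Ifit3b (2.09), Ifit3 (1.97), Mx2 (1.87), Ifit2 (1.82), Ifit1 (1.80), Rsad2 (1.35), Mx1 (1.31) and Cmpk2 (0.70). Among the OAS and OASL genes they were Oas3 (1.45), Oasl2 (1.37), Oas2 (1.36), Oasl1 (0.90) and Oas1a (0.61). Among nucleic acid sensors and binders they were Ifi205 (1.36), Eif2ak2 (0.94), Dhx58 (0.88) and Zbp1 (0.77). The remaining ones were Rtp4 (1.61), Xaf1 (1.13), Parp14 (0.98), Samd9l (0.89), Herc6 (0.88) and Stat2 (0.82). In all 23 the difference made by FK506 was the larger one at 4 h. Only Rsad2 and Ifi205 of these were raised by curdlan at 2 h. Their rise was itself larger at 4 h. For all 23 the contrast does not separate a later or larger rise from a stronger action of FK506. For Stat2, Oas2 and Parp14 it also includes an opposite FK506 difference at 2 h. On the log2 scale Rsad2 kept 51.9% ± 8.1 of its rise with FK506 at 2 h and 47.5% ± 2.5 at 4 h. Ifi205 kept 92.9% ± 12.3 and 72.0% ± 2.7. Whether these shares differ between the times was not tested. The arrays at 2 h and at 4 h that enter this contrast are separate.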

How the results depend on the processing

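No called direction reversed in 7616 values (272 member comparisons under 28 alternatives), 92 calls were lost and 95 gained, and 69 of the 117 calls were lost under no alternative. A large part of these values could not reverse. Alternatives that alter only a threshold, the variance prior or the features tested leave the log2 changes as they are. Leaving out an array cannot move the log2 change of a comparison that does not use it. The 4 h rise, its growth from 2 h and the FK506 difference at 4 h had 24 to 27, 29, and 23 to 24 calls with any 1 array left out (without curdlan 2 h replicate 1 or 2 or curdlan 4 h replicate 2, the 29 lacked Tap1 and included Sp100). Most changes came from the fold threshold. The share of all genes called under the alternatives is not given, so the counts of members have no background beside them. Without it the calls were 12 at 2 h (5 higher, 7 lower), 6 for FK506 at 2 h, and 9 and 18 for curdlan with FK506 against nontreated cells at 2 h and 4 h. With limma treat, which tests against 1.5-fold, they were 0 for FK506 at 2 h, 15 for FK506 at 4 h, 0 and 3 for curdlan with FK506 against nontreated cells and 9 for the change of the FK506 difference. FK506 at 2 h had 2 calls with array weights, 2 without both outlying arrays and 1 to 2 with 1 array left out (2 without curdlan 2 h replicate 3 or curdlan + FK506 2 h replicate 3, Rsad2 being added). Curdlan with FK506 against nontreated cells at 2 h had 1 to 3 (1 without nontreated replicate 2 or 3), and at 4 h 6 to 8. With 1 array left out, curdlan at 2 h had 4 to 6 calls and the change of the FK506 difference 21 to 24. The replicate number as a replicate block left 4, 26, 1 and 24 calls at 2 h, 4 h, FK506 at 2 h and FK506 at 4 h, the same counts as without it; same-numbered arrays of different groups had a median correlation of their deviations of 0.02 (range −0.73 to 0.58), and 6 of 15 arrays correlated best with their own number. On the linear scale the share remaining at 4 h moved by more than the delta-method SE of the log2 share for 11 of 26 members: Ifi205 (35%), Parp14 (34.7%), Oasl1 (27.3%), Rsad2 (20.4%), Ifit1 (18.3%), Ifit3 (15.9%), Xaf1 (14.3%), Ifih1 (13.2%), Mx2 (11.2%), Ifit3b (9.46%) and Ifit2 (8.28%). Alternatives were run for the members and not for the other lists. The cause of lost and gained calls was not tested. Among the members, signal close to background limits Ifit3b, Mx2 and Cmpk2, whose nontreated levels lie in the lower quartile.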
